A study of Homo sapiens with 12 samples.

Results

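The genes described here encode collagen chains, laminin chains, matrix metalloproteinases (MMPs) and the tissue inhibitors of metalloproteinases (TIMPs), and they were followed in sorted gastric cancer cells. Members were chosen by symbol alone, as every gene named COL, LAM, MMP or TIMP with the numbering of these families. The rule took 81 of the 34595 genes with values: 43 collagen, 12 laminin, 22 MMP and 4 TIMP genes. RNA was measured on 12 single-colour Illumina bead arrays. The cells were 3 established human gastric carcinoma lines, KATO-III, SNU-216 and SNU-601, which were stained for CD133 and separated by flow cytometry. CD133, the product of PROM1, is a surface glycoprotein widely used to enrich tumour-initiating cells. The CD133+ group of each line held the brightest 10% of cells and the CD133- group the dimmest 6%, and each of these 6 populations had 2 arrays. The sample labels name SNU-216, whereas the text on the design of the series has SNU201 in its place, and the labels were followed here. The supplementary sort plot of the study also names a line that is not among these 3. No drug, genetic change or animal host entered these groups, so each line stood for itself only, and a fraction was a range of staining within 1 line. The labels do not say whether the 2 arrays of a population came from separate sorts, so the p-values measured the spread between these arrays, which may be technical. Because the samples were bulk populations, fewer expressing cells and less RNA per cell cannot be told apart.

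Collagens and laminins are the main structural proteins of the matrix around cells. Laminins are secreted as trimers of an alpha, a beta and a gamma chain, and together with network collagens they build the basement membrane under epithelia such as the gastric lining. LAMA3 and LAMB3 encode chains of the laminin of hemidesmosomes, the junctions in which the transmembrane collagen COL17A1 and an integrin tie the cell to that membrane. MMPs are zinc proteases that cut matrix and cell surface proteins, and TIMPs bind and block them.

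The intensities are in arbitrary units and were normalised so that all arrays shared 1 distribution. The background level, called the floor, was 32.7, the value of the 1st percentile of the whole table with its minus sign removed. A gene was above background in a population when both arrays exceeded it. Values under the floor were set to it before testing and so showed no spread. SEs and p-values of genes at the floor in whole populations can therefore be too small. PROM1 itself separated the fractions in every line, at 9180 ± 471 against 4275 ± 309 in KATO-III, 9023 ± 353 against 2225 ± 8.80 in SNU-216 and 4777 ± 141 against 1320 ± 6.44 in SNU-601 (mean ± SD, n = 2, CD133+ first). The arrays carried an epithelial profile: 7 of 8 epithelial markers were above the floor on all 12 arrays, with KRT20 on 3. All 5 endothelial markers, and PTPRC and CD3E among the immune markers, were above it on none. Of 11 fibroblast markers, 7 (DCN, FAP, PDGFRA, PDGFRB, THY1, POSTN and FN1) were above it on none, although LUM and ACTA2 moved with the fractions as given beside the collagens.

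Of the 81 genes, 44 were above background in at least 1 population and 12 in all 6, while 32 were above the floor on no array. Those 44 were also the ones tested, since a test required 2 arrays above the floor. Of the 12 laminin genes, 10 were above background somewhere and 7 in every population. Among collagens the figures were 20 and 2 of 43, among MMPs 10 and 1 of 22, and among TIMPs 4 and 2 of 4. COL8A2, COL16A1, LAMA5, LAMB3, MMP15, TIMP1 and TIMP2 were among the genes in every population. By population, 24 genes were above background in KATO-III CD133+ cells and 26 in KATO-III CD133- cells, 30 and 28 in SNU-216, and 33 and 33 in SNU-601. Replicate arrays were close, with a median SD of 0.11 on the log2 scale over the 174 pairs of values above background.

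**Figure D1:**
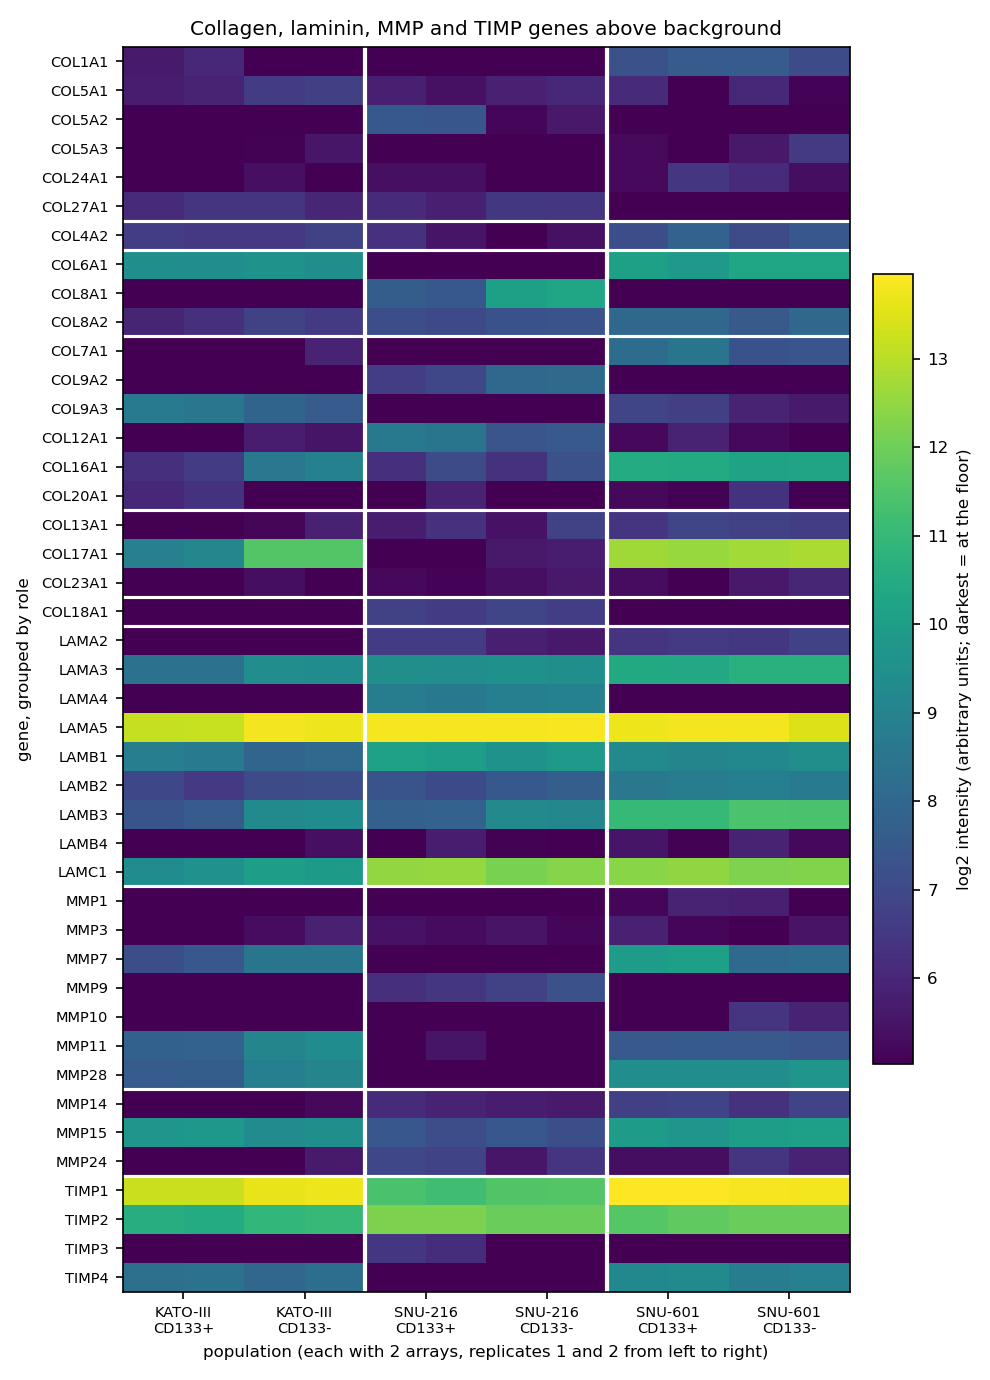
Heat map of 43 of the 44 collagen, laminin, MMP and TIMP genes above background in at least 1 of the 6 populations, 1 row per gene grouped by role and 1 column per array, coloured by log2 intensity in arbitrary units with values under the floor of 32.7 set to it. LAMA5 and TIMP1 are bright on every array, the rows of COL8A1 and LAMA4 are lit in SNU-216 only, and those of COL6A1, MMP7 and MMP28 are dark there.

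The repertoire of each line was the first difference to be seen. SNU-216 had 7 genes above background that neither other line had: COL5A2, COL8A1, COL9A2, COL18A1, LAMA4, MMP9 and TIMP3. These are 15.9% of the 44, where 5.13% of the 19075 genes above background somewhere were so confined. In all 4 other populations but in neither of SNU-216, 6 genes were above background (13.6%, against 3.2% of those genes): COL6A1, COL9A3, MMP7, MMP11, MMP28 and TIMP4. Only in SNU-601 were COL7A1, LAMB4, MMP1 and MMP10 above background, on both arrays of a population (9.09%, against 3.39%). COL7A1 was clearly above the floor there and the others stayed at or under 84.0. COL7A1 and LAMB4 also exceeded the floor on 1 KATO-III array each, at 59.0 and 42.4. LAMB4 did so on 2 SNU-216 arrays too, at 53.4 and 34.0. KATO-III had no gene of its own, where 5.68% of those genes were confined to it. COL23A1, LAMA2, MMP14 and MMP24 were above background in neither of its fractions but in both fractions of the other lines (9.09%, against 2.13%). COL23A1, MMP14 and MMP24 still exceeded the floor on 1 KATO-III array each, at 41.3, 37.5 and 51.6. In SNU-216 COL23A1 read only 34.5 to 49.6. Differences between lines passed the limma F-test (Benjamini-Hochberg adjusted p under 0.05) for 37 of the 44 genes, against 72.3% of all 20147 genes tested. Among the genes named here, LAMB4 (adjusted p = 0.388), MMP1 (0.108) and COL23A1 (0.0504) did not pass it.

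Between SNU-216 and SNU-601 34 genes differed (background 56.5%), 12 higher and 22 lower in SNU-216 (background 29.4% and 27.1%). KATO-III differed from SNU-216 in 32 (background 62%), 12 of them higher and 20 lower in KATO-III (background 30.3% and 31.7%), and from SNU-601 in 30 (background 58.6%). In that last comparison only 4 genes were higher in KATO-III and 26 were lower, where over all genes 28.7% were higher and 29.9% lower. Of the 10 laminins, 8 were lower in KATO-III than in SNU-216 and 8 were lower in KATO-III than in SNU-601, and no laminin was called higher in KATO-III against either. At an unadjusted p under 0.05, 32 and 31 of the 44 genes differed in these 2 comparisons, against 64.7% and 61.7% of all genes.

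Turning to the CD133 fractions, 18 of the 44 genes passed the test in KATO-III, 14 in SNU-216 and 10 in SNU-601, where the background was 39.3%, 28.6% and 16.4% of all genes. The split by direction differed between the lines. In KATO-III 4 genes were higher in CD133+ cells and 14 lower, which are 9.09% and 31.8% of the 44 against 18.7% and 20.6% of all genes. In SNU-216 8 were higher and 6 lower (background 14.6% and 14%), and in SNU-601 4 were higher and 6 lower (background 8.59% and 7.78%). The median log2 difference of the 44 was -0.18 in KATO-III, where that of all genes was 0.00, and it was 0.00 in both other lines. Genes at the floor in both fractions of a line enter these medians as 0.00. A median of 0.00 therefore does not show that the measured genes had no shift. Without 1 array of the 12 the count lay between 15 and 17 in KATO-III, 12 and 15 in SNU-216, and 6 and 9 in SNU-601. The SNU-601 count of 6 arose without either KATO-III CD133+ array or without replicate 2 of the SNU-601 CD133- cells.

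**Figure D2:**
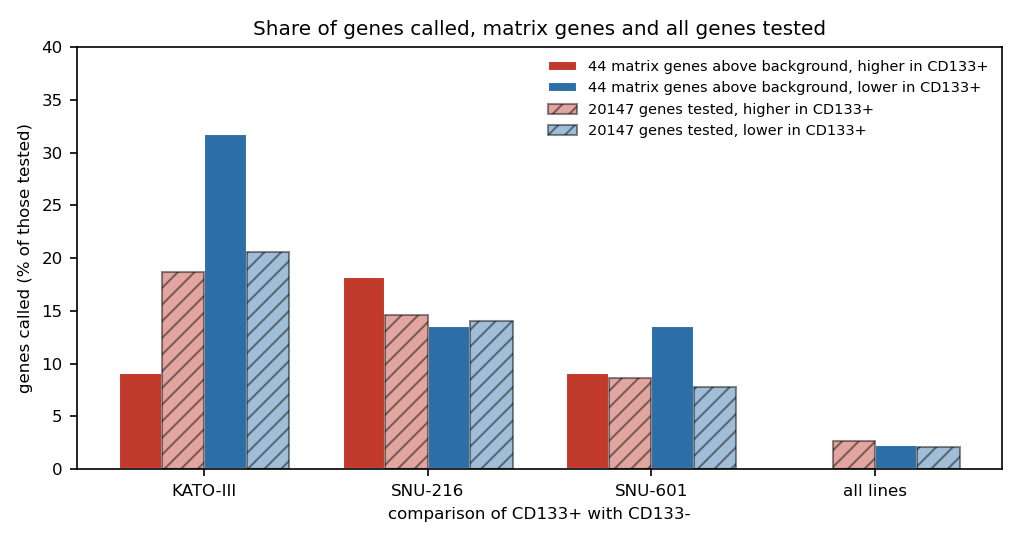
Bars give the percentage of genes called at an adjusted p under 0.05 between CD133+ and CD133- cells, solid for the 44 collagen, laminin, MMP and TIMP genes and hatched for all 20147 genes tested, with red for higher and blue for lower in CD133+ cells. In KATO-III the solid blue bar (31.8%) stands above the hatched blue one (20.6%) and the solid red bar (9.09%) below the hatched red one (18.7%), and over all lines 1 matrix gene is called.

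Among the fibrillar collagens, which form the fibres of connective tissue, signals were low. COL1A1, a chain of type I collagen, lay between 139 and 196 on the 4 SNU-601 arrays. In KATO-III it read 51.4 and 67.1 in CD133+ cells and was at the floor in CD133- cells, a difference of at least 1.80-fold (adjusted p = 0.00977) that was lost with a floor or an offset of 100. COL1A2, the partner chain of type I collagen, passed the floor on 1 array only. COL5A2, a chain of the type V collagen that limits fibre width, was measured in SNU-216 alone. Its values there were 179 and 172 in CD133+ cells and 35.4 and 49.3 in CD133- cells. The fractions did not overlap, and COL5A2 was 4.20-fold higher in CD133+ cells (log2 difference 2.07, SE 0.151, adjusted p = 2.72e-05). COL5A3, another type V chain, was called lower in SNU-601 CD133+ cells, at 38.0 and 30.9 against 49.6 and 92.6. This call rested on values near the floor: it held without 1 array in 1 of 12 fits (log2 difference -0.94, adjusted p = 0.0437, and 0.242 with an offset of 100). COL5A1, COL24A1 and COL27A1 stayed at or under 105 and were called between the fractions of no line, and COL27A1 was at the floor in SNU-601 alone.

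COL4A1 and COL4A2 encode the chains of the most common network collagen of basement membranes. COL4A2 was between 90.9 and 228 on all KATO-III and SNU-601 arrays and was not called between the fractions of any line, with log2 differences of -0.05 in KATO-III, 0.68 in SNU-216 and 0.20 in SNU-601. The 95% interval in KATO-III ran from -0.74 to 0.63. COL4A1 passed the floor on 1 array. The other 4 genes of the type IV family passed it on none. COL4A1 and COL4A2 lie head to head on chromosome 13, and the promoter windows of RefSeq (250 bases before to 50 after each start, GRCh38.p14) overlap in 226 bases, with 127 bases between the 2 starts. That shared stretch is printed because it lies in the promoter windows of both genes. It is given on the strand of COL4A2, with a GGGCGG match in capitals, the letters bound by Sp1, searched on both strands and found in 45% of 35116 windows.
COL4A1 and COL4A2, chr13:110307108-110307333: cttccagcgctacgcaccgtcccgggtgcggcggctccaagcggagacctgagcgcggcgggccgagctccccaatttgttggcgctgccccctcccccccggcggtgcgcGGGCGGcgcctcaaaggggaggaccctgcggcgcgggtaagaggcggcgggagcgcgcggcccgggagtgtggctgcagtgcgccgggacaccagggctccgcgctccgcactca

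COL6A1, COL8A1 and COL8A2 belong to the collagens of beaded filaments and open networks. COL6A1 ranged from 672 to 779 in KATO-III and from 937 to 1283 in SNU-601. On every SNU-216 array it was under the floor, at least 21.9-fold below KATO-III and at least 34.9-fold below SNU-601 (adjusted p = 2.94e-11 and 1.16e-11). Type VI collagen is built from COL6A1 together with COL6A2 and COL6A3, and both partners were above the floor on no array. COL6A1 was not called between the fractions of any line. Its log2 differences were -0.09 in KATO-III (95% interval -0.31 to 0.14) and -0.33 in SNU-601 (-0.55 to -0.11, adjusted p = 0.0521). In SNU-601 both CD133+ arrays, at 1105 and 937, were nevertheless under the CD133- arrays, at 1275 and 1283. COL8A1 had the reverse distribution: it was under the floor on all 8 arrays of KATO-III and SNU-601. In SNU-216 it read 204 and 181 in CD133+ cells and 1099 and 1228 in CD133- cells. The fractions were far apart, 6.05-fold lower in CD133+ cells (log2 difference -2.60, SE 0.120, adjusted p = 3.19e-06). COL8A2, its partner chain, was above background everywhere, from 62.2 to 263, and in SNU-216 the fractions lay at 146 and 129 against 155 and 160, not a called difference. In KATO-III it was 1.48-fold lower in CD133+ cells (adjusted p = 0.0356), a call that was lost with a floor or an offset of 100 and held in 3 of the 12 fits without 1 array.

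The anchoring and fibril-associated collagens attach to other fibres, and 5 of the 6 tested differed in their fraction effect between lines by the interaction test of line and fraction, which 44.4% of all genes passed. COL16A1, a fibril-associated chain found in epithelial and smooth muscle matrix, read 74.7 and 97.5 in KATO-III CD133+ cells and 388 and 498 in CD133- cells. That was 5.15-fold lower (log2 difference -2.36, SE 0.332, adjusted p = 0.000513). In SNU-601, where it was brightest, it read 1462 and 1425 against 1158 and 1204, and the difference was not called (0.29, 95% interval -0.46 to 1.04). In SNU-216 the arrays of a fraction disagreed, with 74.4 and 136 in CD133+ cells and 81.0 and 151 in CD133- cells. COL7A1, which forms the anchoring fibrils that fasten the basement membrane to the tissue below, was above background in SNU-601 alone. It read 288 and 361 in CD133+ cells and 155 and 168 in CD133- cells, 2.00-fold higher in CD133+ cells (adjusted p = 0.0242). The call held in 6 of the 12 fits that left out 1 array, with adjusted p-values up to 0.236 over all alternatives.

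COL9A2 and COL9A3 are chains of type IX collagen, best known from cartilage, and they were not measured in the same lines. COL9A3 was above background in KATO-III and SNU-601, and it was higher in CD133+ cells of both. It read 424 and 369 against 238 and 191 in KATO-III and 118 and 105 against 61.2 and 51.3 in SNU-601. These were 1.85-fold (adjusted p = 0.00185) and 1.99-fold (adjusted p = 0.00355), and in neither line did the fractions overlap. With a floor of 100 the SNU-601 call was lost. COL9A2 was above the floor in SNU-216 alone and went the other way there, with 101 and 122 in CD133+ cells and 266 and 277 in CD133- cells, 2.44-fold lower (log2 difference -1.29, adjusted p = 0.000111). COL12A1, which decorates type I collagen fibres, was brightest in SNU-216. There it read 395 and 364 in CD133+ cells against 167 and 185, 2.16-fold higher (adjusted p = 0.00367, lost with a floor of 16 at 0.0673). In KATO-III it was at the floor in CD133+ cells and read 53.1 and 46.4 in CD133- cells, at least 1.52-fold lower, a call near the threshold (adjusted p = 0.0449) that 10 of the 12 fits without 1 array did not make. COL20A1, a faint relative, was at least 2.26-fold higher in KATO-III CD133+ cells (66.7 and 81.7, with the CD133- arrays at the floor, adjusted p = 0.0442), a call made in 4 of those 12 fits.

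COL17A1, the hemidesmosomal collagen, showed the widest difference between lines of the 44 genes. It ranged from 6118 to 7214 in SNU-601 and was at the floor or just over it, at 54.0 at most, in SNU-216. The line means on the log2 scale differed by 7.34 (SE 0.0567, adjusted p = 4.1e-13, with the 2 CD133+ arrays of SNU-216 at the floor). KATO-III lay between these, and there the fractions parted: COL17A1 read 488 and 568 in CD133+ cells and 3035 and 3001 in CD133- cells. It was 5.74-fold lower in CD133+ cells (log2 difference -2.52, SE 0.0801, adjusted p = 2.29e-07). In SNU-601 it read 6609 and 6118 against 6799 and 7214, which was not called (-0.14, 95% interval -0.32 to 0.04). In SNU-216 both CD133+ arrays were at the floor and the CD133- arrays read 50.4 and 54.0, at least 1.60-fold lower (adjusted p = 0.000362). The fraction effect in KATO-III differed from that in SNU-601 (interaction contrast -2.38 on the log2 scale, adjusted p = 4.53e-06). Its contrast with SNU-216 has no fixed size, since the SNU-216 effect is a bound. Of the other transmembrane collagens, COL13A1 was called in no line. COL23A1, near the floor throughout, was 1.54-fold lower in SNU-601 CD133+ cells (40.6 and 33.1 against 50.2 and 63.6, adjusted p = 0.0433), a call made in 3 of the 12 fits without 1 array. COL18A1, whose cleaved end is endostatin, read between 98.1 and 118 in SNU-216, the line it was confined to, and did not differ past the test between its fractions.

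The KATO-III collagen calls went both ways, with 3 higher and 4 lower in CD133+ cells. There the fibroblast marker LUM, itself a matrix proteoglycan, was lower, with a mean of 78.0 in CD133+ and 763 in CD133- cells. The summed intensity of the 11 fibroblast markers was 847 to 850 in KATO-III CD133+ cells and 1471 to 1550 in CD133- cells. In SNU-216 the sum was 1212 to 1263 against 636 to 641, with ACTA2 at 589 and 31.8, and in SNU-601 it was 500 to 681 against 477 to 483. The 7 markers named above stayed at the floor on all 12 arrays. The 5 immune markers summed to 884 to 921 in KATO-III CD133+ cells against 1299 to 1343, to 206 to 218 against 424 to 469 in SNU-216 and to 1148 to 1279 against 1612 to 1679 in SNU-601, with PTPRC and CD3E above the floor on no array. The change lay in CD14 in KATO-III, with means of 846 and 1222, and in CD68 in SNU-216 (187 and 407) and SNU-601 (1148 and 1576). The part of these genes in the collagen differences was not tested.

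Of the laminins, LAMB3 had the largest difference between fractions in each line. LAMB3, the beta chain of the hemidesmosomal laminin, was the only one of the 44 genes with a called decrease in CD133+ cells of all 3 lines, where 0.427% of all genes had one. It read 164 and 194 in KATO-III CD133+ cells and 634 and 660 in CD133- cells, 220 and 228 against 606 and 571 in SNU-216, and 2055 and 2076 against 2725 and 2700 in SNU-601. The fractions overlapped in no line. The differences were 3.62-fold in KATO-III (log2 difference -1.86, adjusted p = 9.37e-07), 2.63-fold in SNU-216 (-1.39, adjusted p = 7.87e-06) and 1.31-fold in SNU-601 (-0.39, adjusted p = 0.0103). The last call was lost, at 0.055 at most, when replicate 1 of either SNU-601 fraction was left out. The size of the LAMB3 difference also varied between lines: all 3 pairs of lines differed in it (adjusted p = 0.0119 for KATO-III against SNU-216, 3.76e-05 for KATO-III against SNU-601 and 0.000304 for SNU-216 against SNU-601).

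LAMA3, an alpha chain that pairs with LAMB3, read 335 and 339 in KATO-III CD133+ cells and 678 and 669 in CD133- cells. It was 2.00-fold lower in CD133+ cells (SE of the log2 difference 0.0456, adjusted p = 1.36e-06). In SNU-601 it was 1.21-fold lower, at 1385 and 1383 against 1675 and 1661 (adjusted p = 0.00488), a small difference with tight arrays. In SNU-216 it read 691 and 671 against 730 and 706 and was not called (-0.08, 95% interval -0.18 to 0.03).

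**Figure D3:**
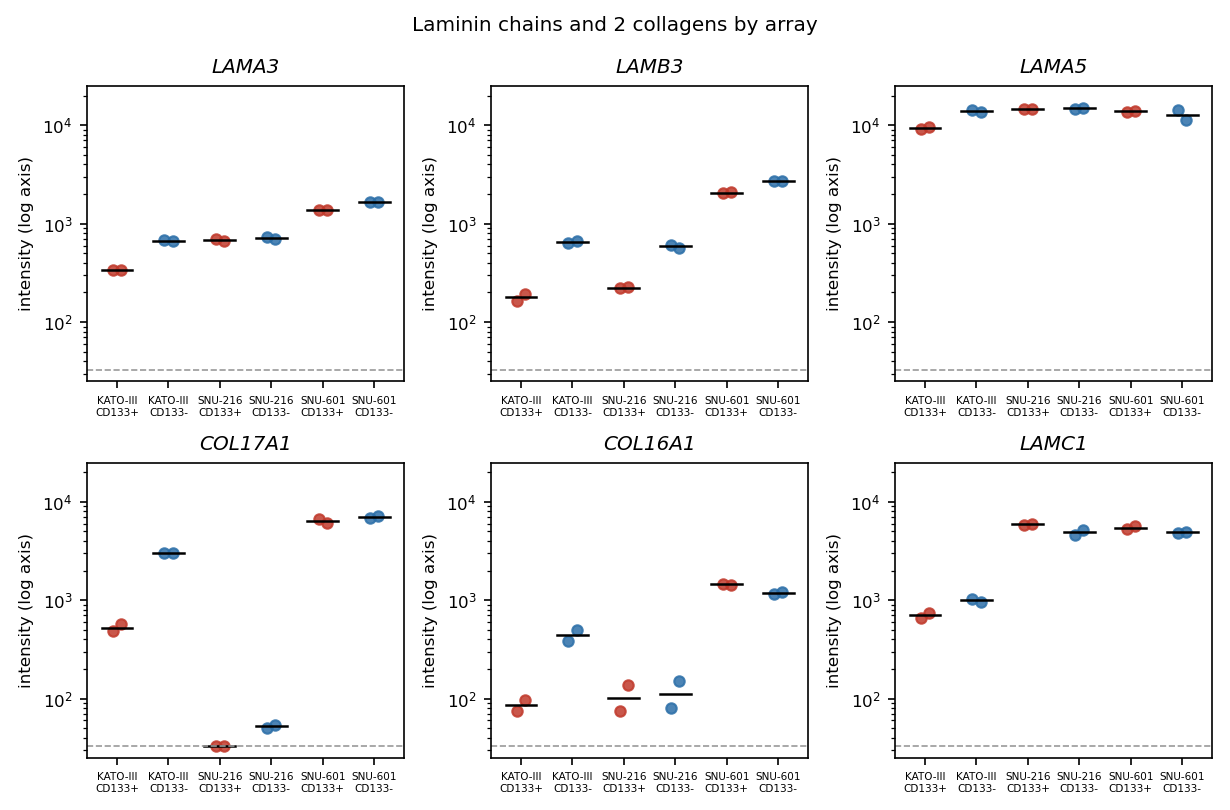
Intensity on a log axis in arbitrary units for LAMA3, LAMB3, LAMA5, COL17A1, COL16A1 and LAMC1, 1 point per array (red CD133+, blue CD133-), with black bars at the mean of the log2 values of the 2 arrays and a dashed line at the floor of 32.7. LAMB3 is lower in CD133+ cells of all 3 lines, and COL17A1 shows its large gap in KATO-III only.

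Promoter windows were also searched for short motifs. The letters TGAGTCA, read as TGACTCA on the opposite strand, are the site of AP-1 factors. They occurred in the RefSeq windows of 3 of the 54 members that had one, LAMA3, LAMB3 and MMP7, and in 4.95% of all 35116 windows. TATAAA occurred in 13 of the 54 members (11.5% of windows) and GGGCGG in 34 (45%), and none of these motifs overlaps another in its letters. A member counted if any of its windows matched, and some members had more than 1 window. The percentages are over single windows, so they are not like for like with the counts of members. The windows of LAMA3 and LAMB3 are printed because both genes moved between the fractions and hold the AP-1 letters. Positions count from the transcription start and give the first base of the match. LAMA3 had matches at -125 and -69, and 1 of the 3 LAMB3 windows had a match at -67. A match describes letters only. Both follow GRCh38.p14, read in the direction of the gene, with the AP-1 letters in capitals.
LAMA3, chr18:23872770-23873069, plus strand: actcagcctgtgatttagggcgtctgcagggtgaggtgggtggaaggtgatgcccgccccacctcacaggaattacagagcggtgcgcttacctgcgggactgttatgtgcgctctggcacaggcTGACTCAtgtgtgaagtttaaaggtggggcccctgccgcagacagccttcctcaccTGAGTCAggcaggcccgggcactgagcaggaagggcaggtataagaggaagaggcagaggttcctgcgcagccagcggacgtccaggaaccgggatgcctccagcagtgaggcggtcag
LAMB3, chr1:209651325-209651624, minus strand: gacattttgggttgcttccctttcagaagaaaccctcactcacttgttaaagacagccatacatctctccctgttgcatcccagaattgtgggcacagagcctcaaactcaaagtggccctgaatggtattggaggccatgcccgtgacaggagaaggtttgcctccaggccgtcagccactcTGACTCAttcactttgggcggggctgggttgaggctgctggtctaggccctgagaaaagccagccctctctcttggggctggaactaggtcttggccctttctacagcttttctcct

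The broadly used laminin chains followed another pattern. LAMC1, the gamma chain of most laminins, was low in KATO-III, from 662 to 1028, and lay between 4572 and 5979 in the other lines (KATO-III 6.41-fold below SNU-216 and 6.16-fold below SNU-601). In CD133+ cells it was 1.41-fold lower in KATO-III, with 662 and 749 against 1028 and 958 (adjusted p = 0.00102). It was 1.21-fold higher in SNU-216 with 5810 and 5979 against 4572 and 5200 (adjusted p = 0.0286, lost in 3 of the 12 fits without 1 array and without the intensity trend, up to 0.182). In SNU-601 the difference of 0.16 was not called. LAMA5, the main epithelial alpha chain, was bright in every population. It read 9220 and 9506 in KATO-III CD133+ cells against 14304 and 13546 (1.49-fold lower, adjusted p = 0.000933), and from 11386 to 14934 on the arrays of the other lines. LAMB1, the classic beta chain, moved against its partners in KATO-III, with 457 and 426 in CD133+ cells and 248 and 273 in CD133- cells (1.70-fold higher, adjusted p = 0.000908). LAMB2 was called in none of the 3 lines.

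The alpha chains typical of vessels and muscle differed in the lines that had them. LAMA4, found in endothelial basement membranes, read 435 and 396 in SNU-216 CD133+ cells and 467 and 498 in CD133- cells. The fractions differed by -0.22 on the log2 scale, not a called difference. LAMA4 was under the floor on all 8 other arrays, at least 13.7-fold lower in KATO-III and in SNU-601. LAMA2, the alpha chain of muscle, was above background in SNU-216 and SNU-601. In SNU-216 it was 1.85-fold higher in CD133+ cells, at 97.3 and 97.9 against 55.7 and 49.9 (adjusted p = 0.00118). LAMA1 and LAMC3 passed the floor on no array.

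**Figure D4:**
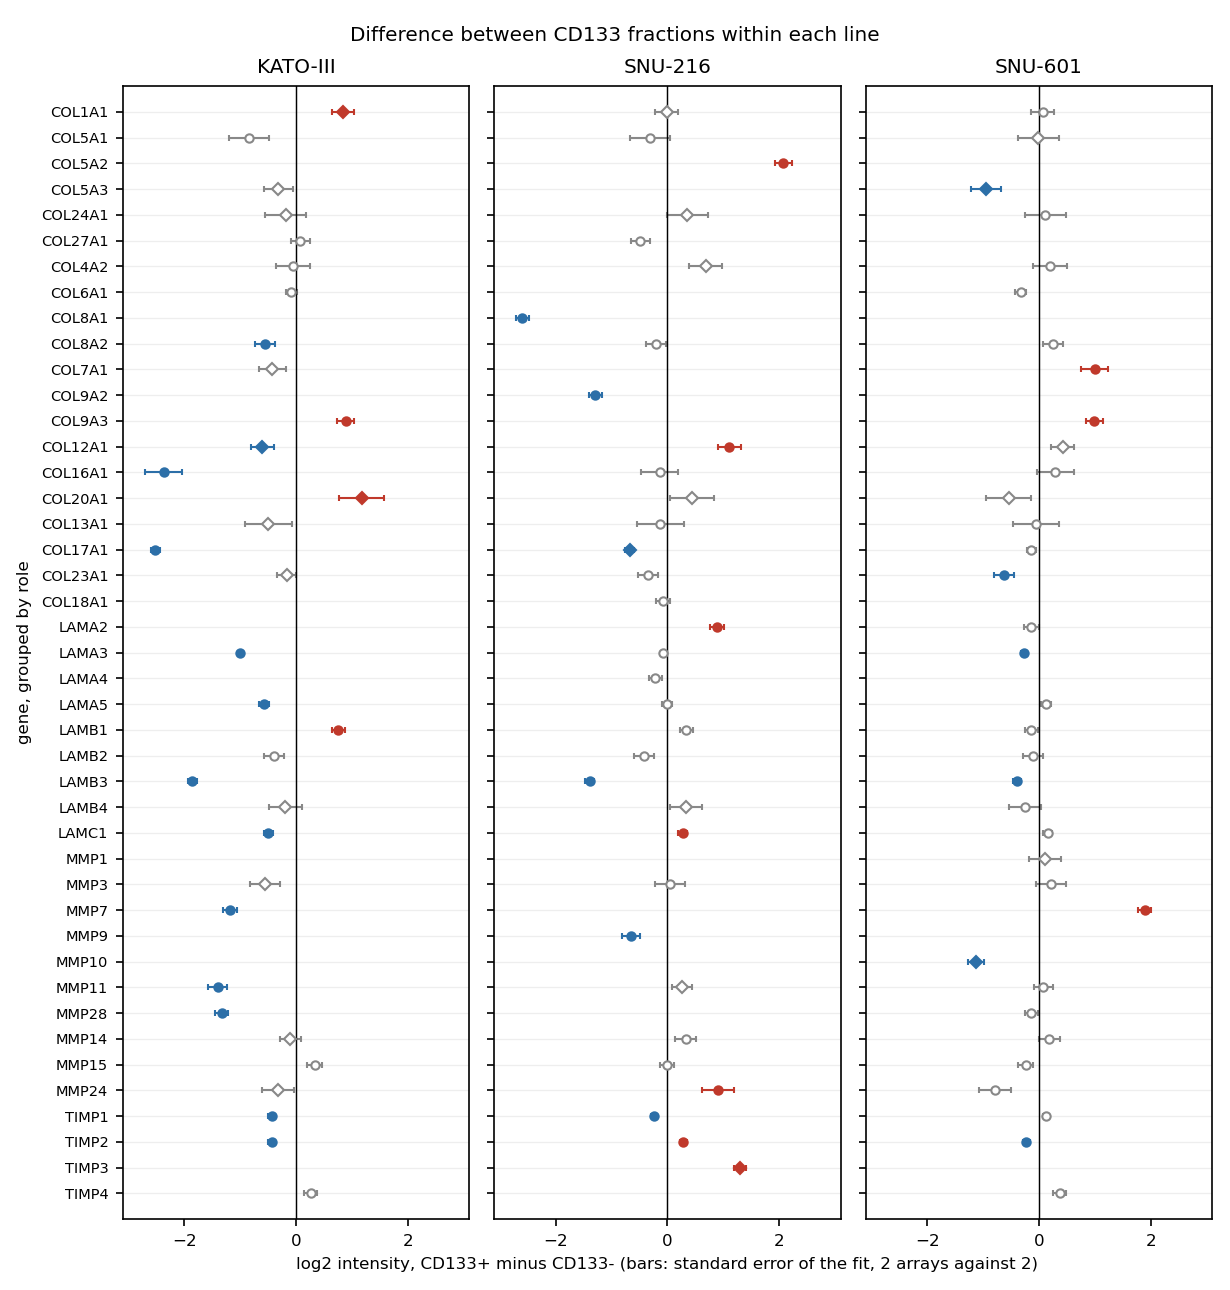
Log2 difference between CD133+ and CD133- cells in each line for 43 of the 44 genes, grouped by role, with the standard error of the fit (2 arrays against 2). Filled symbols passed the test (red higher, blue lower in CD133+ cells), open grey ones did not, diamonds mark differences with 1 or more arrays at the floor, and genes at the floor in both fractions have no symbol. Blue symbols are most frequent in KATO-III, and LAMB3 is blue in all 3 panels.

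Of the 16 secreted MMPs, 7 were above background in some population. MMP7, matrilysin, a protease made by epithelial cells, was called in opposite directions in 2 lines, by over 2-fold in each. In KATO-III it read 145 and 178 in CD133+ cells and 365 and 361 in CD133- cells, 2.26-fold lower (log2 difference -1.18, SE 0.119, adjusted p = 8.02e-05). In SNU-601 it read 999 and 1078 in CD133+ cells and 270 and 288 in CD133- cells, 3.72-fold higher (log2 difference 1.89, adjusted p = 8.4e-05). The CD133- cells of these lines thus lay closer to each other than the CD133+ cells did. The effects in the 2 lines differed by -3.07 on the log2 scale (adjusted p = 9.21e-06), and in SNU-216 all 4 arrays were under the floor. The MMP7 window, printed because it also holds the AP-1 letters, has them at -67 and TATAAA at -30. It is given with AP-1 in capitals.
MMP7, chr11:102530698-102530997, minus strand: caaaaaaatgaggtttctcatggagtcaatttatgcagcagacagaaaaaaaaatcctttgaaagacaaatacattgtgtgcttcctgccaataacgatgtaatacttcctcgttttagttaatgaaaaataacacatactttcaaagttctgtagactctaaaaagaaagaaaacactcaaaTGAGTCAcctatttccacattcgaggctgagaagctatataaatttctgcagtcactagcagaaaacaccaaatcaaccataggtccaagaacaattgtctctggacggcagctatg

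MMP11 (stromelysin-3) and MMP28 (epilysin) were also lower in KATO-III CD133+ cells. MMP11 read 225 and 228 against 547 and 656, 2.64-fold lower (adjusted p = 0.000238). MMP28 read 197 and 202 against 468 and 539, 2.52-fold lower (adjusted p = 3.12e-05). Neither was called in SNU-601. There MMP11 read 185 and 189 against 185 and 168 (0.08, 95% interval -0.31 to 0.47) and MMP28 674 and 683 against 682 and 815 (-0.14, -0.40 to 0.12). In SNU-216 MMP28 was under the floor on every array and MMP11 exceeded it on 1 array, at 46.8. The 3 secreted MMPs that passed the test in KATO-III were therefore MMP7, MMP11 and MMP28, all lower in CD133+ cells.

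The remaining MMPs were faint. MMP10, stromelysin-2, was at the floor everywhere but in SNU-601 CD133- cells, at 84.0 and 61.1. That was at least 2.19-fold lower in CD133+ cells (adjusted p = 0.00133). MMP9, the gelatinase of inflamed and remodelling tissue, was measured in SNU-216 alone, with 77.9 and 86.9 in CD133+ cells and 109 and 153 in CD133- cells (1.57-fold lower, adjusted p = 0.014, 0.118 with an offset of 100). MMP2, the other gelatinase, was above the floor on no array. MMP7, MMP20, MMP27, MMP8, MMP10, MMP1, MMP3, MMP12 and MMP13 follow one another among the coding genes of chromosome 11 in RefSeq. Of these 9 neighbours MMP7 was above background in 4 populations, MMP3 in 5, MMP1 and MMP10 in 1 each and the others in none. MMP3 never exceeded 58.0 and was called between the fractions of no line.

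Among the membrane-type MMPs, which act at the cell surface, MMP15 was the one above background everywhere. It ranged from 650 to 1076 in KATO-III and SNU-601 and from 141 to 177 in SNU-216 (KATO-III 4.81-fold and SNU-601 6.16-fold above SNU-216). It was not called between fractions in any line. MMP14, the activator of MMP2 on many cells, was not called in any line either and stayed at or under 116. MMP24 was 1.88-fold higher in SNU-216 CD133+ cells, with 121 and 115 against 47.8 and 82.1. That call was near the threshold (adjusted p = 0.0426, up to 0.255 over the alternatives) and held in 3 of the 12 fits that left out 1 array.

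All 4 inhibitors were above background in at least 1 population. TIMP1, a secreted inhibitor of most MMPs, ranged from 9671 to 13541 in KATO-III and from 14366 to 15882 in SNU-601 but only from 2395 to 3044 in SNU-216, which lay 4.10-fold below KATO-III and 5.49-fold below SNU-601 (adjusted p = 1.28e-10 and 3.73e-11). In CD133+ cells it was 1.36-fold lower in KATO-III (9671 and 9752 against 12780 and 13541, adjusted p = 0.000296). In SNU-216 it was 1.19-fold lower (2684 and 2395 against 2967 and 3044, adjusted p = 0.0102, 0.0629 without replicate 2 of the CD133- cells). In SNU-601 it was not called (0.12, 95% interval -0.01 to 0.25). TIMP2, which also helps MMP14 to activate MMP2, was highest in SNU-216 and there 1.22-fold higher in CD133+ cells, with 4696 and 4687 against 3830 and 3866 (adjusted p = 0.00656). In KATO-III it was 1.35-fold lower, with 1530 and 1458 against 1987 and 2050 (adjusted p = 0.000443). In SNU-601 it was 1.17-fold lower, with 3094 and 3526 against 3820 and 3892 (adjusted p = 0.0344). The SNU-601 call held in 1 of the 12 fits that left out 1 array.

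TIMP3, the inhibitor that binds to the matrix itself, was above background in 1 population. It read 88.0 and 73.8 in SNU-216 CD133+ cells and was at the floor in the CD133- cells, at least 2.47-fold higher (adjusted p = 6.05e-05). TIMP4 read 322 and 340 against 250 and 305 in KATO-III and 589 and 621 against 448 and 488 in SNU-601. The CD133+ arrays were above the CD133- arrays in both, yet neither difference was called (0.26, adjusted p = 0.116, and 0.37, adjusted p = 0.0636). In SNU-216 TIMP4 was under the floor on all 4 arrays, at least 9.25-fold below KATO-III.

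**Figure D5:**
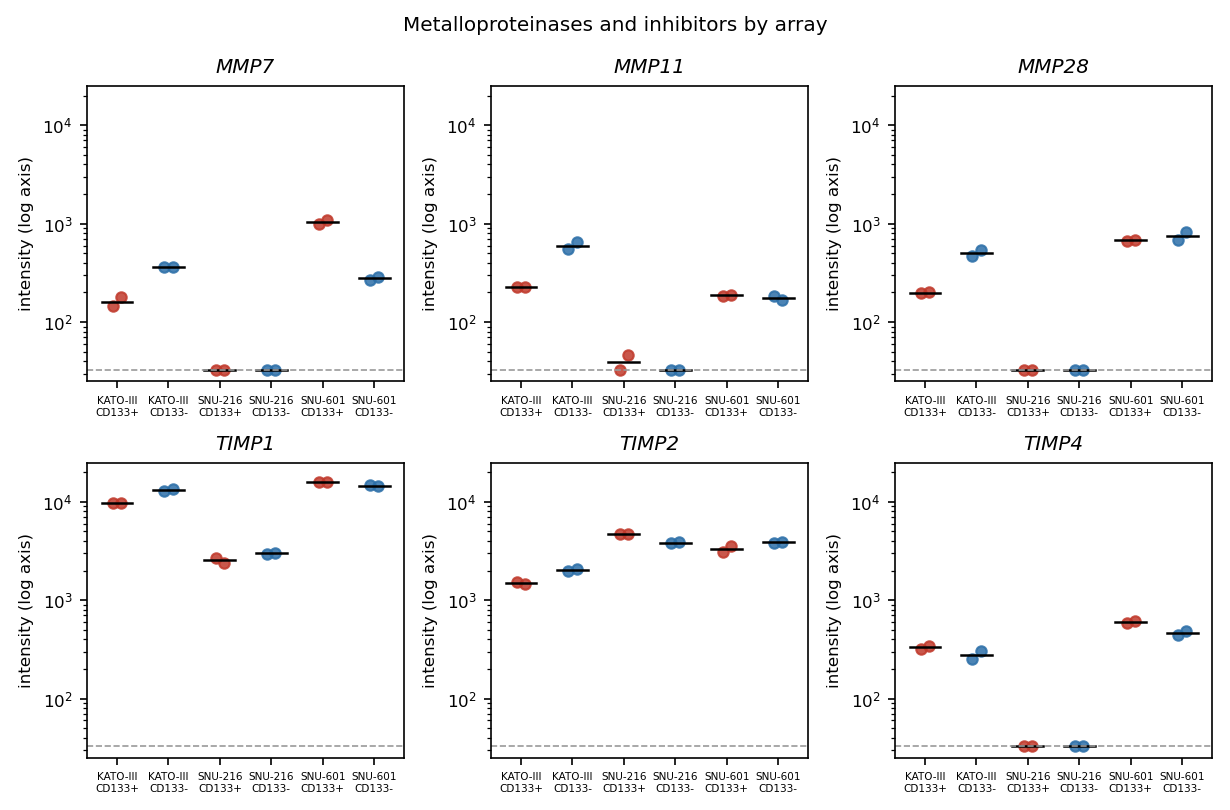
Intensity on a log axis in arbitrary units for MMP7, MMP11, MMP28, TIMP1, TIMP2 and TIMP4, 1 point per array (red CD133+, blue CD133-), black bars at the mean of the log2 values and a dashed line at the floor of 32.7. MMP7 is lower in CD133+ cells in KATO-III and higher in SNU-601, and SNU-216 has the lowest TIMP1 points and, in CD133+ cells, the highest TIMP2 points.

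Over the 3 lines together, with the line as a term, LAMB3 was the only one of the 44 genes that passed the test, against 4.73% of all genes (2.62% higher and 2.11% lower). It was lower in CD133+ cells by 1.21 on the log2 scale (a log2 difference of -1.21, SE 0.193, adjusted p = 0.0116), in 3 of 3 lines. When the 2 arrays of a population were averaged first, or the population was a random block, LAMB3 did not pass (adjusted p = 0.796 and 0.105). At an unadjusted p under 0.05 there were 13 of the 44 genes with arrays as the unit (24.5% of all genes), and 2 with population means (4.92% of all genes). The interaction of line and fraction passed for 23 of the 44 genes, where 44.4% of all genes did, and these were 8 collagens, 7 laminins, 5 MMPs and 3 TIMPs.

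The genes that act on these proteins were read as 3 further lists. Of 22 tested genes for the processing and crosslinking of collagen, 4 were higher and 8 lower in KATO-III CD133+ cells, 4 and 4 in SNU-216, and 4 and 0 in SNU-601. Over all genes the shares were those given above, 18.7% and 20.6% in KATO-III, 14.6% and 14% in SNU-216, and 8.59% and 7.78% in SNU-601. Their median log2 differences were -0.11, 0.00 and 0.16, with genes at the floor in both fractions again entered as 0.00. Within it, LOXL4, an enzyme that crosslinks collagen, showed a log2 difference of -1.31 in KATO-III and 1.31 in SNU-216 (adjusted p = 0.000481 and 0.000798). P4HA1, a subunit of the collagen prolyl hydroxylase, was higher by 0.51 in KATO-III and 1.47 in SNU-216 (adjusted p = 0.00785 and 4.37e-05). Of 13 partners of the basement membrane, 1 was higher and 4 lower in KATO-III, 4 and 3 in SNU-216, and 0 and 1 in SNU-601. FBLN1, a fibulin that binds laminin and nidogen, was lower by 2.35 in SNU-216 CD133+ cells (log2 difference -2.35, adjusted p = 2.97e-06). Of 12 activators and regulators of MMPs, 1 was higher and 3 lower in KATO-III, 2 and 2 in SNU-216, and 2 and 1 in SNU-601. PLAUR, the receptor that gathers urokinase at the cell surface, had a log2 difference of -1.47 in KATO-III and -0.85 in SNU-216 but 0.25 in SNU-601, each past the test (adjusted p = 4.24e-07, 1.24e-05 and 0.0133). These 4 genes were singled out after their values were seen.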

How the data were processed

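RNA of CD133+ and CD133- cells of 3 gastric cancer lines was hybridised to 12 arrays. Per the labels, the deposited intensity values came from Illumina BeadStudio; the authors quantile-normalised them and gave 1 linear value per gene symbol. How background was subtracted and probes were combined is not given in the sources used here; 32.1% of values are at or below 0. Each array had 16320 to 16474 genes above the floor of 32.7, set at the 1st percentile with its sign turned. Values were floored, log2-transformed and fitted with limma 3.58.1 (R 4.3.3, intensity trend, Benjamini-Hochberg, threshold 0.05) over the 20147 genes for which 2 or more arrays passed the floor, in a model of 6 population means (6 residual degrees of freedom) and in a model of line and fraction (8). All arrays shared 1 estimate of the spread, to which arrays at the floor added none. Where every array of the dimmer population was at the floor, the fold is a lower bound. The number of arrays limits the precision. No test compared intensities of different probes, but the marker sums add them. Words such as bright or faint describe probe signal only. Scripts were tested on simulated data.

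1 gene counted among the 44 is not reported here. The genes and lists were chosen with earlier results of these data known. Genes given in full were those called over all lines or in at least 2 lines, the 5 called with the largest difference in each line, the 10 with the widest range of line means, and the 4 TIMPs; others are given by role with single values. Alternatives changed the floor (16 and 100), the filter, an offset of 100 in place of the floor, centring, a second quantile normalisation, the intensity trend, blocks, and the arrays included.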

Additional observations from a re-analysis of the deposited data

Results flagged for a closer look

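For 18 of the named genes the CD133 effect differed between the lines by the limma interaction test, with the adjusted p-values given here. 44.4% of all genes passed the same test. Among collagens these were COL17A1 (5.36e-06), COL8A1 (1.37e-05), COL5A2 (0.000124), COL9A2 (0.000514), COL16A1 (0.0033), COL12A1 (0.00373), COL9A3 (0.00983) and COL7A1 (0.0209). Of these, COL8A1, COL5A2, COL9A2 and COL7A1 were above background in 1 line only, so the difference is between a line that was measured and lines at or near the floor. COL12A1 was above background in both fractions of SNU-216 only. Its effect in KATO-III is a bound, and in SNU-601 1 of its CD133- arrays was at the floor. The COL17A1 effect in SNU-216 is a bound. For COL9A3 the measured effects in KATO-III and SNU-601 had the same direction. Among laminins the values were LAMA3 (2.83e-05), LAMB3 (4.83e-05) and LAMC1 (0.00105). LAMC1 was lower in CD133+ cells of KATO-III and higher in those of SNU-216, while LAMB3 differed in size and not in direction.

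Among the proteases the values were MMP7 (1.19e-05), MMP28 (0.000372), MMP11 (0.00107) and MMP10 (0.00233), and among the inhibitors TIMP3 (0.000271), TIMP2 (0.000444) and TIMP1 (0.00133). MMP10 and TIMP3 passed the filter for testing through 1 population each, and all their other arrays were at the floor. Their interaction p-values therefore set 1 population against the floor. MMP7 and TIMP2 had called effects of opposite direction in 2 lines. The difference for COL7A1 was lost, at 0.0998 at most, in 5 of the 12 fits without 1 array and with a floor of 16.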

How the results depend on the processing

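When the genes were limited to those above the floor on all 12 arrays, 12 members could be tested, and 11 were called in KATO-III, 6 in SNU-216, 4 in SNU-601, 2 over all lines, 11 for the interaction and 12 between lines. Under this filter 53.9%, 44.3%, 26.3%, 10.6%, 62.3% and 86.4% of all genes were called, in the same order. Over all lines, a floor of 16 gave 2 members. Averaging the arrays of a population, the population as a random block (consensus correlation 0.641) and a signal-to-noise ratio past 1 or -1 each gave 0. Without 1 array, the counts ran from 15 to 17 in KATO-III, 12 to 15 in SNU-216, 6 to 9 in SNU-601, 1 to 1 over all lines, 22 to 25 for the interaction and 36 to 39 between lines. The labels do not say whether arrays with the same replicate number were handled together. Deviations of these arrays from their population means correlated between -0.0116 and 0.0276. That shows no large shared shift but cannot tell how the arrays were handled. With the number as a replicate block, 16 members were called in KATO-III, 14 in SNU-216 and 10 in SNU-601, 1 over all lines, 23 for the interaction and 37 between lines. Apart from the filter on all 12 arrays, the share of all genes called under these settings is not given here. Those counts therefore have no background to be read against.

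Of the 694 values computed for 34 single-gene results under these settings, 635 kept their direction and their side of the threshold and 59 kept the direction but missed the threshold. COL17A1 in SNU-216 and COL12A1 in KATO-III gave no value with a floor of 100, since both fractions were then at it. The calls for COL5A3, COL7A1, COL23A1 and TIMP2 in SNU-601, for COL8A2, COL12A1 and COL20A1 in KATO-III and for MMP24 in SNU-216 were lost in at least 6 of 12 fits without 1 array. COL5A3 and COL12A1 lay near the floor, where signal over background limits the data, while COL7A1 and TIMP2 did not. The cause was not tested.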
